A study of Triticum aestivum with 24 samples.

Results

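A small set of wheat leaf transcripts stood below control at the end of a heat stress and above control 1 day later. They were selected on the counts themselves, with no use of function. The count of each transcript was divided by the total of its library and scaled to CPM, counts per 1000000 counts of the library. A transcript was taken when its mean over the 16 libraries of 0 and 1 day after treatment (DAT) was at least 1 CPM. In addition, every heat library had to lie below every control library at 0 DAT, with a ratio of the means, heat over control, of at most 0.67. At 1 DAT every heat library had to lie above every control library, with a ratio of at least 1.5. These conditions were met by 34 transcripts of 34 genes, 0.0726% of the 46809 transcripts of at least 1 CPM, in a table of 137056 transcripts. Of the 6 groups, those at 0 and 1 DAT chose the transcripts, so what the members show there, calls of a fit included, was set by the choice and is given as a description. Only the libraries of 4 DAT were not used in the choice, and they came from the same plants.

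The samples were leaves of the bread wheat cultivar Chinese Spring (Triticum aestivum), a hexaploid that carries 3 related subgenomes (A, B and D). Heat plants were kept at 37 °C for 5 days from the boot stage and were well watered, and control plants stayed at 18 °C by day and 16 °C by night, a regime to which the heat plants returned for recovery. Leaves were sampled at the end of the stress (0 DAT) and at 1 and 4 DAT. Each group of treatment and time had 4 replicates, and each replicate was a pool of RNA from 18 plants, so the error is that between pools. Such pools are described in the study for its small RNA libraries, and that the RNA-seq libraries were made from them is inferred from the shared labels.

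In plants, high temperature lowers the RNA of many genes of growth, photosynthesis and metabolism, while genes for heat shock proteins, chaperones that refold damaged proteins, are switched on by heat shock transcription factors. After the stress ends the chaperone transcripts decline, and transcripts lowered by heat can return to, or pass, the level of unstressed plants while tissue is repaired and growth resumes. In leaf extracts, fewer cells that hold a transcript and less of it per cell cannot be told apart.

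None of the 34 transcripts carried a name. The study's table of microRNA targets, used here in a shortened copy, held 614 transcripts with an annotation text, and 0 of the 34, or of other transcripts of their genes, were among them. The reference gene table matched 0 of the IDs. The transcripts are therefore given by ID, in which the letters and digits after TraesCS give the chromosome, and no function is assigned. In 18 lists drawn from the annotation of the target table, such as kinases, F-box proteins, squamosa promoter-binding factors and ribosomal proteins, 117 transcripts were tested. None of these was a member, and the lists are not taken further.

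Library totals were between 5403461 and 16112270 counts. A leaf marker, the small chain of Rubisco, the enzyme of carbon fixation (TraesCS5B01G162800.1), was at 1482 to 6854 CPM in the 24 libraries. The other leaf markers with a name were lower, with 6.12 to 57.3 CPM for subunit 4 of the cytochrome b6-f complex (TraesCSU01G269500.1) and 7.82 to 21.5 CPM for a PsbP family protein of photosystem II (TraesCS5A01G109600.1). Heat libraries at 0 DAT stood apart in their composition. Their TMM scaling factors, which correct for a shift in the bulk of the transcripts, averaged 1.35 ± 0.134 (SD, n = 4), against group means between 0.924 and 1.01 for the other 5 groups. In 4 libraries the single transcript TraesCS1A01G000100.1 held over 1% of all counts. They were heat replicate 3 at 1 DAT with 6.95%, heat replicates 2 and 4 at 4 DAT with 4.57% and 3.67%, and control replicate 2 at 4 DAT with 4.34%.

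The combination was uncommon among transcripts that met either condition alone. At 0 DAT 2677 transcripts (5.72% of those of at least 1 CPM) met the first condition, and at 1 DAT 3284 (7.02%) met the second. The 34 made up 1.27% of the first set and 1.04% of the second. Among the 2677 lowered at 0 DAT, 468 (17.5%) were still below control at 1 DAT by the mirror condition, against 2.85% of all transcripts of at least 1 CPM. The reverse course, raised at 0 DAT and below control at 1 DAT by the mirror limits, was met by 89 transcripts, 0.576% of the 15441 raised. All of these counts rest on CPM without TMM scaling. The mean TMM factor at 0 DAT was 1.35 in heat, against 0.951 in control. The numbers lowered and raised at 0 DAT, and the shares taken of them, carry this shift of scale. Its part in them was not tested, so the larger number raised is not read as an effect of heat.

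The scale of the counts mattered for membership. When CPM was taken on the TMM scale, 81 transcripts met the conditions, and 15 of the 34 were among them. All 19 that dropped out failed at 1 DAT, 17 of them because heat and control libraries then overlapped and 3 because the ratio fell under 1.5 (1 failed on both), with 0 failing at 0 DAT. Among the 19 were TraesCSU01G063400.1, TraesCS6D01G183500.1, TraesCS3B01G222700.1 and TraesCS2B01G369600.1, described below for their high counts. TraesCS2B01G204200.1, TraesCS3A01G344000.1, TraesCS4A01G154800.1, TraesCS6A01G194300.1, TraesCS6D01G238500.1 and TraesCS7D01G551600.1, also described below, dropped out too. The rest of the 19 are not described singly. The set also widened without heat replicate 3 at 1 DAT, the library with the largest share in TraesCS1A01G000100.1, when 66 transcripts met the conditions, all 34 included.

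**Figure D1:**
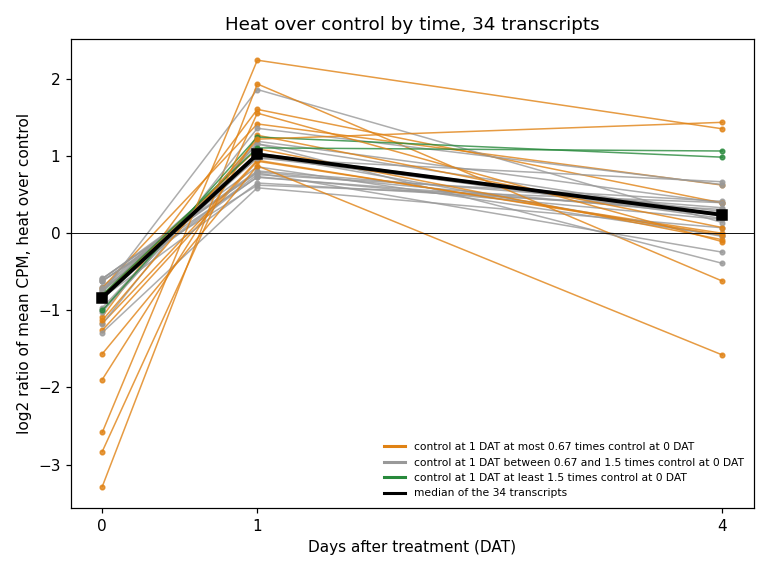
Log2 ratio of mean CPM, heat over control, at 0, 1 and 4 DAT for each of the 34 transcripts (thin lines, coloured by the change of control between 0 and 1 DAT) with the median in black. By selection all lines are below 0 at 0 DAT and above it at 1 DAT, and at 4 DAT they spread on both sides of 0, with 24 of 34 above it.

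The ratio of heat over control at 0 DAT was 0.102 to 0.666 with a median of 0.561, and at 1 DAT 1.5 to 4.74 with a median of 2.03. On the TMM scale of the edgeR fit, the log2 fold changes were -3.82 to -1.09 at 0 DAT (median -1.33) and 0.51 to 2.1 at 1 DAT (median 0.89). In the fit across all transcripts (edgeR, adjusted p under 0.05) 33 of the 34 were among those lower at 0 DAT, which were 13.3% of the 54517 tested, and 16 were among those higher at 1 DAT, which were 7.32%. Because these contrasts chose the transcripts, the counts are no test of the members and nothing is read from them.

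Some members lay close to the limits. TraesCS2B01G204200.1 had a ratio of 0.666 at 0 DAT, just inside, while TraesCS3D01G057900.1 with 0.681 was just outside, although it had 362 CPM in heat against 155 CPM in control at 1 DAT. At 1 DAT TraesCS3A01G344000.1 was inside with a ratio of 1.5 and TraesCS4B01G010400.2 outside with 1.49. TraesCS3B01G057700.1 met the level limit with 1.09 CPM, and TraesCS7A01G241400.1 missed it with 0.901 CPM. In all, 14, 19 and 12 transcripts failed only the ratio at 0 DAT, only the ratio at 1 DAT and only the level.

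The mean over the 24 libraries was between 1.12 and 602 CPM, with a median of 8.90 CPM. Only 4 of the 34 reached 100 CPM, 15 reached 10 CPM, and 11 were under 5 CPM. CPM is not corrected for transcript length, so this order is one of counts and not of molecules.

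The transcript with the most counts was TraesCSU01G063400.1, on a sequence not placed on a chromosome. It had 267, 426, 438 and 342 CPM in heat at 0 DAT, against 533, 561, 570 and 595 CPM in control. At 1 DAT it had 943, 816, 764 and 862 CPM in heat, against 580, 543, 600 and 476 CPM in control. Control thus stayed near one level while heat more than doubled over the day, with means of 846 CPM at 1 DAT and 368 CPM at 0 DAT in heat.

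TraesCS6D01G183500.1 had 99.1 to 156 CPM in heat at 0 DAT, against 186 to 229 CPM in control, and 274 to 371 CPM in heat at 1 DAT, against 145 to 203 CPM in control. Control replicate 4 at 1 DAT, at 145 CPM, was well below the other control libraries of that day, which were between 194 and 203 CPM. TraesCS3B01G222700.1 was tight at 0 DAT, with 62.5, 63.0, 68.9 and 59.8 CPM in heat, against 89.0, 97.6, 94.3 and 111 CPM in control. The values of 1 DAT were 176, 161, 169 and 214 CPM in heat, against 95.8, 90.1, 120 and 109 CPM in control. Its control libraries of the 2 days overlapped, and its heat libraries were well apart between the days.

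TraesCS2B01G369600.1 had 22.1 to 33.7 CPM in heat at 0 DAT, against 43.0 to 53.8 CPM in control. At 1 DAT it had 80.0 to 109 CPM in heat, against 29.4, 48.7, 63.1 and 75.6 CPM in control. The highest control library was close to the lowest heat library. TraesCS6B01G432200.1 had 18.2 to 26.4 CPM in heat at 0 DAT, against 31.3 to 47.2 CPM in control, and 47.2 to 79.0 CPM in heat at 1 DAT, against 29.4 to 34.8 CPM in control. TraesCS6B01G224800.2 is described with its sister transcripts further on.

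**Figure D2:**
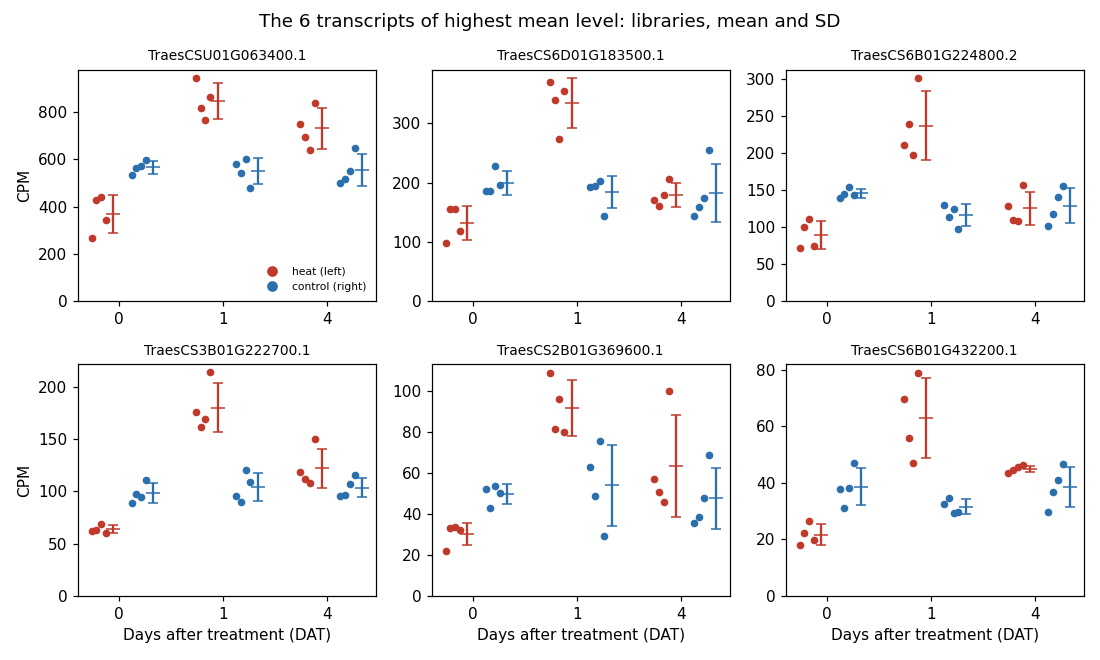
CPM in each library (points) with mean and SD (bars, n = 4) for the 6 transcripts of highest mean count, heat in red to the left of control in blue at each time. Heat was lowest at 0 DAT and highest at 1 DAT in all 6, and at 4 DAT heat and control overlapped in each of them.

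Larger swings were found at lower levels. TraesCS2B01G472900.1 had 0.931, 0.386, 0.473 and 0.132 CPM in heat at 0 DAT, against 4.17, 2.38, 1.91 and 3.06 CPM in control. The libraries of 1 DAT had 5.04, 5.36, 2.44 and 4.49 CPM in heat, against 1.17, 0.827, 1.12 and 0.548 CPM in control, a ratio of 4.74. Between the days the heat mean became 9.03 times as high while the control mean became 0.318 times as high, so the treatments exchanged places. In the library with the fewest, this transcript had a count of 1, and single libraries are imprecise at that depth.

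TraesCSU01G046900.1 had a count of 0 in heat replicate 1 at 0 DAT and 0.232, 0.473 and 0.263 CPM in the other heat libraries, against 1.21, 2.67, 1.72 and 1.29 CPM in control. At 1 DAT it had 1.94, 1.88, 2.19 and 2.89 CPM in heat, against 0.117, 1.56, 0.686 and 0.657 CPM in control. TraesCS7A01G510000.1 had 0.791 to 2.47 CPM in heat at 0 DAT, against 3.47 to 6.45 CPM in control, and 3.04 to 7.56 CPM in heat at 1 DAT, against 1.41 to 2.63 CPM in control. In both the control mean at 1 DAT was under 0.5 times that at 0 DAT (0.439 and 0.391).

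TraesCS7A01G009800.2 had the lowest ratio at 0 DAT and an unsteady level. In heat at 0 DAT it had 1.61, 0.00889, 4.04 and 0.0301 CPM, against 14.3, 5.22, 9.12 and 26.9 CPM in control. At 1 DAT the values were 16.6, 7.13, 6.25 and 7.54 CPM in heat, against 2.46, 1.95, 0.0108 and 5.39 CPM in control. Libraries near 0 occurred in both treatments, 1 of them in control at 4 DAT (0.0124 CPM). Its gene has another transcript, TraesCS7A01G009800.1, with group means of 0 to 1.81 CPM, and the division of shared reads between the pair is an estimate.

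TraesCS5A01G315800.2 had 8.36 to 16.0 CPM in heat at 0 DAT, against 22.5 to 35.0 CPM in control, and 38.6 to 54.5 CPM in heat at 1 DAT, against 9.1 to 22 CPM in control. TraesCS4B01G090100.1 ranged from 3.59 CPM to 20.2 CPM among the heat libraries of 0 DAT, against a narrow 21.2 to 24.7 CPM in control. Its libraries of 1 DAT had 72.3, 48.6, 52.1 and 83.5 CPM in heat, against 23.2, 16.1, 16.8 and 14.3 CPM in control. Its heat libraries at 1 DAT were all above those of control on any day. A sister transcript of the same gene, TraesCS4B01G090100.3, lay the other way at 0 DAT, with means of 9.99 CPM in heat, against 3.95 CPM in control. Its log2 fold change there was 0.91 ± 0.90 (SE, adjusted p = 0.513, edgeR).

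The change from 0 to 1 DAT was seen in heat for every member. Every heat library of 1 DAT was above every heat library of 0 DAT in 34 of 34, against 3.55% of all transcripts of at least 1 CPM. The rule limits heat on both days only through control, yet it favours such a gap. The ratio of the heat means, 1 over 0 DAT, was 1.91 to 9.19 with a median of 2.97, and the median over all transcripts was 0.714. These CPM were not TMM-scaled, and the mean TMM factor was 1.35 in heat at 0 DAT, against 0.963 in heat at 1 DAT. The values for all transcripts that compare heat at 1 and 0 DAT carry this shift of scale, and its part in them was not tested. The heat mean at 1 DAT was above the control mean of 0 DAT in 31 of 34, against 50.6% of all transcripts. Every heat library of 1 DAT was above every control library of 0 DAT in 21, against 8.65% of all transcripts, and both counts rest on libraries that chose the members.

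**Figure D3:**
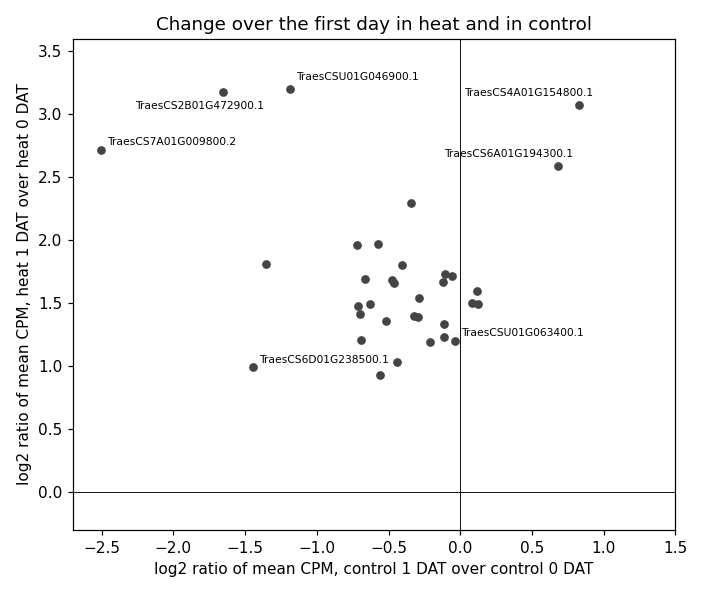
Each of the 34 transcripts by its log2 ratio of mean CPM at 1 over 0 DAT in control (horizontal axis) and in heat (vertical axis). All lie above 0 on the vertical axis, and 29 of 34 lie left of 0 on the horizontal one.

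Control was not level in most members. The control mean at 1 DAT was below that at 0 DAT in 29 of 34, with ratios of 0.176 to 1.77 and a median of 0.745, while the median over all transcripts was 0.982. In 9 members every control library of 1 DAT was below every control library of 0 DAT, 26.5% of them, against 2.44% of all transcripts. The control ratio was at most 0.67 in 11 members, against 8.21% of all transcripts. A high control at 0 DAT and a low control at 1 DAT both help a transcript to meet the rule, so these shares are a description of what was chosen.

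The 11 members with a control ratio of at most 0.67 included TraesCS7A01G009800.2, TraesCS2B01G472900.1, TraesCSU01G046900.1 and TraesCS7A01G510000.1, the 4 lowest ratios of heat over control at 0 DAT among them. Their ratios of heat over control at 1 DAT were 1.83 to 4.74. TraesCS6D01G238500.1, also of the 11, had 5.62 to 10.4 CPM in heat at 1 DAT, against 2.27 to 5.56 CPM in control, and both were below its control of 0 DAT by their means (8.18 to 14 CPM). Heat was thus above control at 1 DAT with neither at the level that control had 1 day earlier.

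In 9 members the control ratio was between 0.9 and 1.1. They included 4 of the 5 transcripts with the most counts (TraesCSU01G063400.1, TraesCS6D01G183500.1, TraesCS3B01G222700.1 and TraesCS2B01G369600.1). Their ratios of heat over control were 0.553 to 0.666 at 0 DAT and 1.54 to 2.05 at 1 DAT, and heat changed between the days by 2.30 to 3.32 times.

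Only TraesCS4A01G154800.1 and TraesCS6A01G194300.1 had control ratios of at least 1.5 (1.77 and 1.61). TraesCS4A01G154800.1 had 0.539, 0.757, 0.663 and 0.633 CPM in heat at 0 DAT, against 1.28, 1.29, 0.827 and 1.78 CPM in control. At 1 DAT it had 5.77, 6.5, 4.94 and 4.63 CPM in heat, against 2.40, 1.69, 3.83 and 1.28 CPM in control. Both treatments were higher at 1 DAT by their means, heat by 8.43 times.

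**Figure D4:**
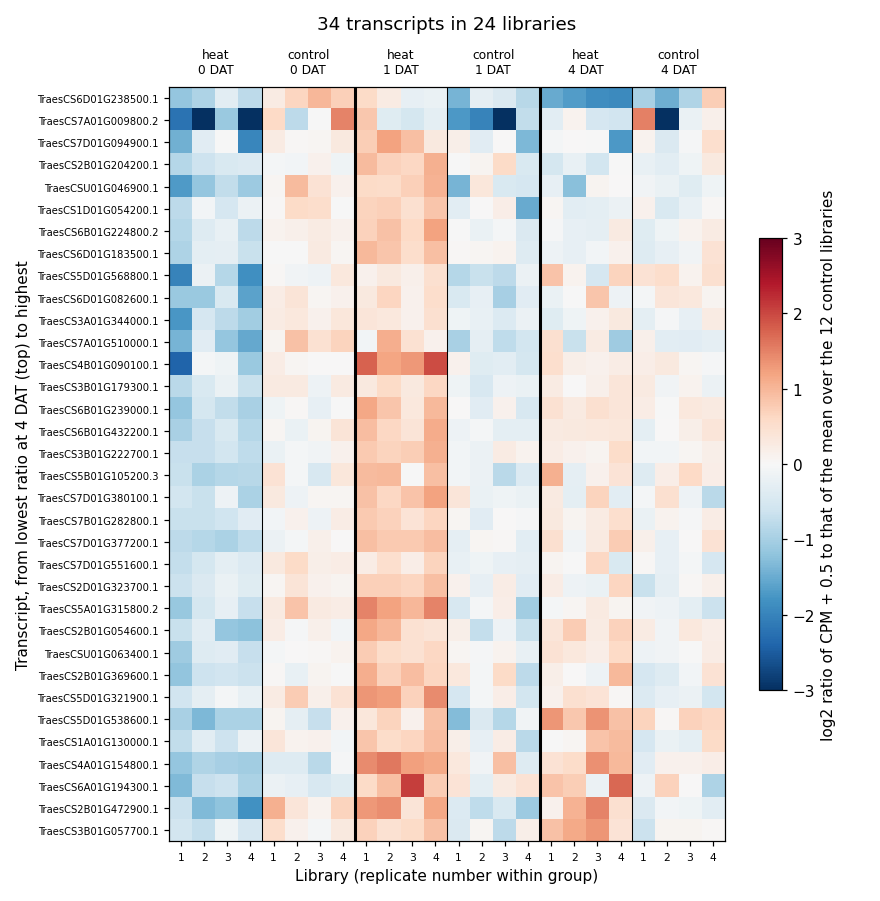
Every library (columns, heat left of control at each time) for the 34 transcripts (rows, by ratio at 4 DAT), as log2 ratio of CPM + 0.5 to that of the mean over the 12 control libraries, with the colour scale ending at -3 and 3. The median over the 34 was -0.95 to -0.53 in the heat libraries of 0 DAT, 0.50 to 0.89 in those of 1 DAT and 0.04 to 0.35 in those of 4 DAT, against 0.06 to 0.13, -0.41 to -0.10 and -0.12 to 0.20 in control.

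The libraries of 4 DAT tell how far the difference lasted. With the quasi-likelihood test of edgeR, 0 members were called at 4 DAT, where 0.18% of all transcripts tested (98 of 54517) were called in either direction. The lowest adjusted p was 0.084, for TraesCS3B01G057700.1. At an unadjusted p under 0.05 there were 8 of 34 (23.5%), against 9.55% of all transcripts tested, and 7 of the 8 were higher in heat, a direction in which 4.01% of all transcripts passed. With DESeq2 and with edgeR's likelihood ratio test 2 members were called higher, TraesCS2B01G472900.1 and TraesCS3B01G057700.1, where 0.451% and 0.304% of all transcripts were called higher.

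By sign, 28 of 34 (82.4%) had a log2 fold change above 0 at 4 DAT, against 49.3% of all transcripts tested, and the median was 0.33, against -0.0043 over all tested. This lean moved both ways when libraries were left out. When the 4 libraries rich in TraesCS1A01G000100.1 were left out, 3 of them of 4 DAT, the median was 0.03, 20 of 34 were above 0 and 4 passed an unadjusted p under 0.05. Without heat replicate 4 of 4 DAT alone the median was 0.13, with 24 of 34 above 0. Without control replicate 4 of 4 DAT alone it was 0.46, with 31 of 34 above 0. The part of these libraries in the result was not tested.

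**Figure D5:**
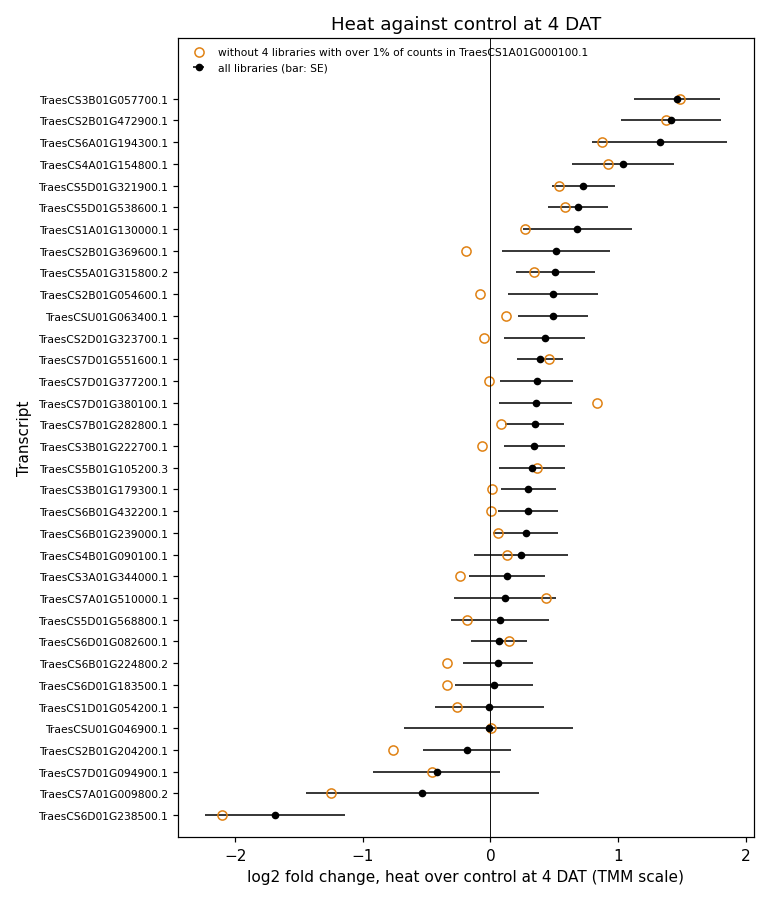
Log2 fold change of heat over control at 4 DAT for the 34 transcripts, with all libraries (black, bars are SE) and without the 4 libraries rich in TraesCS1A01G000100.1 (open circles). With all libraries 28 are above 0 and the values run from -1.69 to 1.46, and without the 4 libraries 20 are above 0.

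In CPM, every heat library was above every control library at 4 DAT in 6 members (17.6%), against 1.09% of all transcripts tested, and below in 1 (2.94%), against 2.38%. Without the libraries rich in TraesCS1A01G000100.1, which left 2 heat and 3 control libraries, 11 members (32.4%) were above, against 13.2% of all transcripts. On the TMM scale it was 5 members (14.7%), against 2.16%. TraesCS5A01G315800.2, TraesCS2B01G472900.1, TraesCS3B01G057700.1 and TraesCS5D01G321900.1 were in all 3 counts, while TraesCS5D01G538600.1 and TraesCS4A01G154800.1 overlapped on the TMM scale. Members named for their values at 4 DAT were picked after those values were seen.

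TraesCS3B01G057700.1 had 2.17, 2.72, 3.15 and 1.45 CPM in heat at 4 DAT, against 0.437, 1.03, 1.04 and 0.991 CPM in control. The log2 fold change was 1.46 ± 0.34 (SE), with an adjusted p of 0.084 by edgeR's quasi-likelihood test and of 0.0052 to 0.433 over 17 other settings. Its heat mean was higher at 4 DAT than at 1 DAT, by 1.32 times. TraesCS2B01G472900.1 had 1.96, 4.07, 5.76 and 2.61 CPM in heat at 4 DAT, against 1.17, 1.61, 1.56 and 1.30 CPM in control, with a log2 fold change of 1.42 ± 0.39 (SE, adjusted p = 0.174, edgeR; 0.0268 to 0.583 over the other settings). Both were at low counts, from 3 and 1 in the library with the fewest.

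TraesCS5D01G321900.1 had 25.5, 32.7, 31.1 and 23.8 CPM in heat at 4 DAT, against 17.5, 19.5, 20.7 and 15.7 CPM in control. Its log2 fold change was 0.73 ± 0.24 (SE, adjusted p = 0.307, edgeR). At 0 DAT it had had 15.5 to 22.3 CPM in heat, against 26.2 to 40 CPM in control, and at 1 DAT 38.3 to 63.4 CPM in heat, against 15.8 to 26.7 CPM in control. Of the 6 it was the one with the most counts. Heat was apart from control at all 3 times in each of the 6, by the way they were picked.

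TraesCS5D01G538600.1 had 7.71, 5.18, 7.79 and 5.48 CPM in heat at 4 DAT, against 4.66, 2.88, 4.8 and 4.56 CPM in control (log2 fold change 0.69 ± 0.23 SE, adjusted p = 0.319, edgeR). Both treatments had their highest means at this time, and at 1 DAT heat was at 3.07 to 5.53 CPM, against 0.820 to 2.52 CPM in control. TraesCS4A01G154800.1 had 2.65, 2.91, 5.52 and 4.07 CPM in heat at 4 DAT, against 1.35, 2.05, 2.06 and 2.2 CPM in control (log2 fold change 1.04 ± 0.40 SE, adjusted p = 0.397, edgeR). TraesCS5A01G315800.2 was only just apart, with 18.4, 20, 23.1 and 20.3 CPM in heat, against 17.8, 17.0, 15.6 and 12.1 CPM in control.

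TraesCS6A01G194300.1 (log2 fold change 1.33 ± 0.53 SE) and TraesCS7D01G551600.1 (0.39 ± 0.18 SE) also passed an unadjusted p under 0.05, with adjusted p of 0.421 and 0.502 by edgeR. TraesCS6A01G194300.1 had 4.12, 3.74, 1.74 and 7.87 CPM in heat at 4 DAT, against 1.81, 3.61, 2.09 and 0.836 CPM in control, and the treatments overlapped. The log2 fold change was 0.68 without heat replicate 4, at 7.87 CPM, and 0.87 without the libraries rich in TraesCS1A01G000100.1. TraesCS7D01G551600.1 had 15.6, 14.7, 23.1 and 10.6 CPM in heat, against 15, 12.3, 14.2 and 10.2 CPM in control, which overlapped in CPM but not on the TMM scale. Without heat replicate 3 its log2 fold change was 0.24.

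The single member below control in every library at 4 DAT was TraesCS6D01G238500.1. It had 2.06, 1.78, 1.5 and 1.45 CPM in heat, against 3.19, 2.15, 3.39 and 11.5 CPM in control. Its log2 fold change was -1.69 ± 0.55 (SE, unadjusted p = 0.00569, adjusted p = 0.28, edgeR). The value depended on control replicate 4 at 11.5 CPM, without which the ratio is nearer to 1 (log2 fold change -0.55). It was also the one member with its lowest heat mean at 4 DAT instead of 0 DAT.

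In the 6 transcripts with the most counts heat and control overlapped at 4 DAT. TraesCS6D01G183500.1 had 171, 160, 179 and 207 CPM in heat at 4 DAT, against 144, 159, 174 and 255 CPM in control. Its log2 fold change was 0.03 ± 0.31 (SE), and its sign turned without the libraries rich in TraesCS1A01G000100.1 (-0.34). TraesCSU01G063400.1 was higher by its means, with 750, 691, 639 and 837 CPM in heat, against 501, 515, 552 and 648 CPM in control, with 1 heat library below the highest control library. Its log2 fold change was 0.49 ± 0.27 (SE, adjusted p = 0.604, edgeR), and 0.12 without the libraries rich in TraesCS1A01G000100.1.

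Within the heat plants the level at 4 DAT lay between those of 0 and 1 DAT in most members. The heat mean was lower at 4 DAT than at 1 DAT in 31 of 34, with a median ratio of 0.718 against 0.972 over all transcripts, and this was so for 53.3% of all transcripts. Every heat library was lower at 4 than at 1 DAT in 14, against 6.02% of all transcripts. The heat mean of 4 DAT was above that of 0 DAT in 33, against 21.8% of all, with no overlap in 23, against 3.82%. This comparison too is in CPM without TMM scaling, with a mean factor of 0.937 in heat at 4 DAT, against 1.35 at 0 DAT. A high heat level at 1 DAT and a low one at 0 DAT were part of the choice, so these shares are not independent of it. In control the median ratio of 4 over 1 DAT was 1.14, against 1.08 over all transcripts. The group with the highest mean was heat at 1 DAT in 28 members and the group with the lowest mean was heat at 0 DAT in 32.

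The exceptions in the highest mean were TraesCS7A01G009800.2, TraesCS6D01G238500.1 and TraesCS7A01G510000.1 in control at 0 DAT, TraesCS5D01G568800.1 in control at 4 DAT, and TraesCS5D01G538600.1 and TraesCS3B01G057700.1 in heat at 4 DAT. The lowest mean was elsewhere in TraesCS5D01G321900.1, in control at 4 DAT, and in TraesCS6D01G238500.1, in heat at 4 DAT.

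The 13 members not described singly were TraesCS6B01G239000.1, TraesCS7B01G282800.1, TraesCS7D01G377200.1, TraesCS6D01G082600.1, TraesCS2D01G323700.1, TraesCS5B01G105200.3, TraesCS3B01G179300.1, TraesCS7D01G094900.1, TraesCS5D01G568800.1, TraesCS2B01G054600.1, TraesCS7D01G380100.1, TraesCS1A01G130000.1 and TraesCS1D01G054200.1. Their means were 3.02 to 35.5 CPM. Heat over control was 0.418 to 0.663 at 0 DAT, 1.65 to 2.29 at 1 DAT and 0.763 to 1.59 at 4 DAT. At 4 DAT their log2 fold changes were -0.42 to 0.68, 11 of them above 0, and 0 passed an unadjusted p under 0.05. That 0 was set by the choice, since members that passed it or were apart at 4 DAT are described singly. The members with the highest levels and the largest swings are also described singly, so the narrower ranges here are no result.

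For 28 of the 34 the gene had no other transcript in the table. When counts were summed per gene, 35 genes met the conditions, 31 of the 34 genes among them. TraesCS6B01G224800, TraesCS5B01G105200 and TraesCS4B01G090100 no longer did. TraesCS5B01G105200.3 held 35.7% of the counts of its gene. The sister TraesCS5B01G105200.2 had means of 18.1 CPM in heat at 0 DAT, against 15.6 CPM in control (log2 fold change -0.29 ± 0.19 SE, adjusted p = 0.294, edgeR). TraesCS6B01G224800.2, with 67.8% of the counts of its gene, had 72.5, 100.2, 111 and 75.3 CPM in heat at 0 DAT, against 140, 145, 155 and 143 CPM in control. Its sister TraesCS6B01G224800.1 had a mean of 69.5 CPM in heat at 0 DAT, against 45.4 CPM in control (log2 fold change 0.12 ± 0.34 SE, adjusted p = 0.852, edgeR).

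At 1 DAT the sisters were higher in heat together. TraesCS6B01G224800.2 had 211, 239, 198 and 301 CPM in heat, against 130, 114, 124 and 97.1 CPM in control. TraesCS6B01G224800.1 had a mean of 103 CPM in heat, against 47.7 CPM in control (log2 fold change 1.06 ± 0.34 SE, adjusted p = 0.0428, edgeR). At 0 DAT the member was lower by selection and the sister did not pass the test, and the difference between them was not tested. Of the 10 other transcripts of the members' genes, 6 were tested and 0 were called at 4 DAT (edgeR quasi-likelihood test), with 2 at an unadjusted p under 0.05.

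Counts were estimates for most members. Whole counts (within 1e-06 of a whole number) in every library, as reads that fit a single transcript give, were found in 1 member (TraesCSU01G046900.1), in some libraries in 11 and in none in 22. In those 22 each value includes reads shared with similar sequences, such as copies on the other subgenomes, and what those reads add to a difference was not tested.

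The members were spread over the genome. By their IDs they lay on 17 of the 21 chromosomes, with 7 on subgenome A (20.6%, against 32.5% of all transcripts of at least 1 CPM), 13 on B (38.2%, against 33.1%), 12 on D (35.3%, against 33.0%) and 2 unplaced. Chromosome groups 6 and 7 held 7 each (20.6%, against 11.8% and 13.6% of all). No members had IDs within 500 of each other in number, and the closest pair, TraesCS7D01G377200.1 and TraesCS7D01G380100.1, were 2900 apart. No pair of members was a set of neighbouring copies by this measure.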

How the data were processed

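RNA-seq of wheat leaves was measured in 24 libraries, and the labels gave each group. What the authors deposited were estimated counts for each transcript (Trimmomatic and kallisto per the submitters' processing notes, with the versions and the transcript index not given in the sources used here). Estimated counts were rounded for tests, and CPM was computed from the deposited counts and library totals.

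Counts were tested in R 4.3.3 with edgeR 4.0.16, by the quasi-likelihood test with 1 mean for each of 6 groups, TMM scaling and filterByExpr at a minimum count of 10 and a minimum total of 15, after which 54517 transcripts remained. Tests were two-sided, p-values were adjusted by Benjamini-Hochberg across all of these, and a call was an adjusted p under 0.05. DESeq2 1.42.0 and edgeR's likelihood ratio test were alternatives. The SE of a log2 fold change was derived from the F statistic and is approximate. The test was checked on simulated counts, drawn with the same spread for all transcripts and without the shift in composition of these libraries.

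Named members were the 6 of highest mean, the 6 with the largest swing between 0 and 1 DAT and those nearest each limit, with 6 more added after their values were seen. The members and lists were chosen with earlier results of these data known. The reference table (IWGSC CS RefSeq v2.1) was of another assembly, so no coordinates or sequences are given.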

Additional observations from a re-analysis of the deposited data

Results flagged for a closer look

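In a group of 4, a library was singled out when its gap to the nearest other library, divided by the range of the group, exceeded Dixon's critical value for 4 values at the 95% level. Of 132 groups tested 10 (7.58%) had such a library, all of them groups of named members, and chance gives about 1 in 20. In each case the value is that of the library set apart, in CPM. In heat, TraesCS2B01G369600.1 was low at 0 DAT in replicate 1 (22.1, nearest 32.2), TraesCS5D01G538600.1 was low at 0 DAT in replicate 2 (0.787, nearest 1.16), TraesCS7A01G009800.2 was high at 1 DAT in replicate 1 (16.6, nearest 7.54) and TraesCS6A01G194300.1 was high at 1 DAT in replicate 3 (10.2, nearest 4.25). In control, TraesCS5A01G315800.2 was high at 0 DAT in replicate 2 (35.0, nearest 23.3) and TraesCS6D01G183500.1 was low at 1 DAT in replicate 4 (145, nearest 194). In control at 4 DAT, TraesCS7A01G510000.1 was high in replicate 1 (3.66, nearest 2.63), TraesCS3B01G057700.1 was low in replicate 1 (0.437, nearest 0.991), TraesCS6D01G238500.1 was high in replicate 4 (11.5, nearest 3.39) and TraesCS5D01G538600.1 was low in replicate 2 (2.88, nearest 4.56).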

How the results depend on the processing

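The conditions were met by 10 transcripts at ratio limits of 0.5 and 2, by 81 on the TMM scale and by 33 to 66 with 1 library left out. Calls of members at 1 DAT (16) became 10 with no filter on low counts, 8 with only the 8 libraries of that time, 8 without the libraries rich in TraesCS1A01G000100.1 and 8 to 21 with 1 library left out. Calls at 0 DAT (33) were 25 to 31 with 1 library left out. At 4 DAT 2 members were called with DESeq2, 2 with the likelihood ratio test, 1 per gene and 0 with any library left out. Apart from DESeq2 and the likelihood ratio test at 4 DAT, the share of all transcripts called in these settings is not given. A change in calls is therefore not read as a trait of the members. The median log2 fold change at 4 DAT (0.33) and the count of members apart at 4 DAT (6) were added after the data were seen. They were 0.0346 and 11 without the libraries rich in TraesCS1A01G000100.1, and 0.13 to 0.46 and 6 to 10 with 1 library left out. The share of all transcripts with every heat library above every control library rose as well. It was 1.09% with all libraries, 13.2% without the rich libraries and 1.54% to 2.93% with 1 library left out. The cause was not tested.

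Of 356 values of named members at 4 DAT 24 changed sign, 327 kept sign and side of the threshold and 5 became called. With total counts alone TraesCS6D01G183500.1 was -0.0318 and TraesCS6B01G224800.2 -0.0428, and with DESeq2 TraesCSU01G046900.1 was 0.0028. Without the libraries rich in TraesCS1A01G000100.1, TraesCS6D01G183500.1 was -0.34, TraesCS6B01G224800.2 -0.34, TraesCS3B01G222700.1 -0.0676, TraesCS2B01G369600.1 -0.19, TraesCS3A01G344000.1 -0.24 and TraesCSU01G046900.1 0.0022. With 1 library left out, TraesCS6D01G183500.1 was -0.19 to 0.43, TraesCS6B01G224800.2 -0.22 to 0.33, TraesCS7A01G009800.2 -0.96 to 0.22, TraesCSU01G046900.1 -0.31 to 0.28, TraesCS7A01G510000.1 -0.16 to 0.28, TraesCS2B01G204200.1 -0.45 to 0.16 and TraesCS3A01G344000.1 -0.14 to 0.44.

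Same-numbered heat and control libraries correlated in their deviations by -0.00783 to 0.0646 at 0 DAT, 0.0431 to 0.235 at 1 DAT and 0.0685 to 0.209 at 4 DAT. The best match was the own number for 4, 7 and 8 of 8 libraries. That is a hint from the data that same-numbered libraries share an effect. The study describes a completely randomized design, so the main test did not take the numbers as pairs and leaves such an effect in the error. With the replicate number as a block, 32 members were called at 0 DAT, 13 at 1 DAT and 0 at 4 DAT, where the median was 0.31. The share of all transcripts called with the block is not given, so nothing is read from these counts of calls.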
